A study of Mus musculus with 6 samples.

Results

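Described here are 94 mouse genes of 7 families, measured in cultured airway basal stem cells. The families hold genes that the early embryo is known to switch on around the 2-cell stage. Whether each of the 94 is active at that stage was not checked. Members were taken by symbol from a table of 56748 genes. These were the 10 genes whose symbols begin with Zscan4, 2 with Tcstv, 10 with Tdpoz, 6 with Usp17l and 48 with Pramel, the 17 named Eif1ad followed by a number, and the single gene Zfp352. The families were chosen because their values differed in this comparison, so every difference in a member is a description and carries no test.

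RNA had been sequenced from epithelial cells of wild-type mouse tracheas, grown as primary airway basal stem cells for 4 days. Cells of 3 libraries had received UK-5099, which blocks the mitochondrial pyruvate carrier. Cells of the other 3 libraries had received Y-27632, a ROCK inhibitor, with A8301 and DMH-1, which block TGF-beta and BMP type I receptors and are known together as dual SMAD inhibition. No untreated cells were among the samples, so a gene lower with UK-5099 cannot be told apart from one higher with the 3 inhibitors. The labels leave unsaid if Y-27632 was in the UK-5099 medium as well, whether libraries came from separate animals or cultures, or the strain, age and sex of the mice. P-values below therefore measure the spread between these libraries, which may be technical.

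In the mouse, the embryo's own genome is first transcribed on a large scale at the 2-cell stage. Genes of these families belong to that brief wave. Such genes also appear in a small, changing fraction of mouse embryonic stem cells known as 2-cell-like cells. There the homeobox factor Dux switches them on. Most members lie in tandem clusters of near-identical copies, so a read from one copy can often be placed on another.

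The promoters of 6 members are printed to show what family members share and where they differ. RefSeq's table for GRCm38.p6 held 57 promoter windows for 56 of the 94 members, each with 250 bases before and 50 after the transcription start. They were searched on both strands for 4 motifs: the TATA box as TATAAA, the NR5A nuclear receptor motif as CAAGGNCA, the OBOX homeobox motif as GGATTA and an 11-base motif of DUX. Capitals mark every match, and a match on the other strand shows as its reverse complement. No 2 matches overlapped in the 6 windows printed, and 1 pair did among all 57.
Zscan4c, chr7:11005495-11005794, plus strand: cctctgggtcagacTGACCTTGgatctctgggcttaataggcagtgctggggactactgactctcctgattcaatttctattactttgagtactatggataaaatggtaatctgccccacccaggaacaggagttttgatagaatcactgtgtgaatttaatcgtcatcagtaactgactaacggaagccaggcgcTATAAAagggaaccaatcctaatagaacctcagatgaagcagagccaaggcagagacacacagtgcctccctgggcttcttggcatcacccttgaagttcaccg
Zscan4d, chr7:11166099-11166398, minus strand: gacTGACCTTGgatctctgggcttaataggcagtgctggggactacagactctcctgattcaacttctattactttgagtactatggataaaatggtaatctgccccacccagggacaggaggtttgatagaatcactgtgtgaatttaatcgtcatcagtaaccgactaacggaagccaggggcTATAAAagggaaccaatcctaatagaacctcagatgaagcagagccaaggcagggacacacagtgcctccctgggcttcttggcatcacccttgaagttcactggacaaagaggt
Usp17lc, chr7:103416446-103416745, plus strand: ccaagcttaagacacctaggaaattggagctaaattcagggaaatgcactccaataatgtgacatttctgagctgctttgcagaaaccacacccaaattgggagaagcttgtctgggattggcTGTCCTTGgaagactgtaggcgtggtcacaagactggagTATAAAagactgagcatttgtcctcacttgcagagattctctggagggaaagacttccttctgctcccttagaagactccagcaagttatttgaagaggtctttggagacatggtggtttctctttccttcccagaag
Usp17la, chr7:104856766-104857065, plus strand: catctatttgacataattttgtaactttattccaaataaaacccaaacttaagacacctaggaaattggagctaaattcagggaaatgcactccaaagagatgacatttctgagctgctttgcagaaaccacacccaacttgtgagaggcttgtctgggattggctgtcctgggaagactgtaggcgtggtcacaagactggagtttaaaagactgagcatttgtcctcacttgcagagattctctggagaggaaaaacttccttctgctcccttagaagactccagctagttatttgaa
Zfp352, chr4:90218570-90218869, plus strand: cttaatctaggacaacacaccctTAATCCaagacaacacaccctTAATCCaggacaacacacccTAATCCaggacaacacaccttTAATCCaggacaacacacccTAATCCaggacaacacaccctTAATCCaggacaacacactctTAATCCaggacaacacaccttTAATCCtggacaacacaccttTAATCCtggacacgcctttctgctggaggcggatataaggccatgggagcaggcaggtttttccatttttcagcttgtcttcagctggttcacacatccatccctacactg
Tdpoz8, chr3:93068573-93068872, plus strand: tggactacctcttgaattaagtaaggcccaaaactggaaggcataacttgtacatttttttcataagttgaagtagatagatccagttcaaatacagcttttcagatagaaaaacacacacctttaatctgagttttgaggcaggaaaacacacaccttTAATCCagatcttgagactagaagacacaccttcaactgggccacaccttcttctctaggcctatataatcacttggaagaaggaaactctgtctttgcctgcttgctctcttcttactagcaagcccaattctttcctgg

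Zscan4c and Zscan4d, copies from one cluster, matched at 97.2% of 289 aligned bases, and each window held 1 TATAAA and 1 CAAGGNCA. All 4 Zscan4 windows in the table held both motifs. Usp17lc and Usp17la matched at 95.3% of 257 aligned bases, yet the Usp17lc window held TATAAA and CAAGGNCA and the Usp17la window held neither. The Zfp352 window carried GGATTA 9 times in a repeated block. Tdpoz8 had a pair of windows in the table, and the one printed held GGATTA once.

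Over the 57 windows of members, TATAAA was found in 20 (35.1%), against 13.6% of all 32851 mouse promoter windows of the same length. CAAGGNCA was found in 16 (28.1%), against 6.71% of all windows, and GGATTA in 12 (21.1%), against 7.06%. The DUX motif was in none of the 57 windows and in 0.0335% of all windows. Copies within a family share ancestry, so the windows are not independent of each other, and a match is a stretch of letters, not a shown binding site. The families occupy few places in the genome. Of the 81 members with a RefSeq record, the Zscan4 and Usp17l genes lie on chromosome 7, Tdpoz on chromosome 3, Eif1ad on chromosome 12, Tcstv on chromosome 13 and Zfp352 on chromosome 4. Of the Pramel genes, 25 lie on chromosome 4 and 18 on chromosome 5.

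Of the 94 members, 11 were at 0 in all 6 libraries and 83 were detected. The mean was lower with UK-5099 in 79 of these 83 and higher in 4. For 58 of the 83, all 3 UK-5099 values lay below all 3 values of the 3 inhibitors, for 1 they lay above, and for 24 the groups overlapped. Among all 31040 genes detected, 18.6% lay below in this way and 17.6% above. Because members were picked on this contrast, nothing is read from that difference. Values are normalized counts, that is, reads divided by a size factor per library, so that 1 read was worth between 0.894 and 1.22. In bulk RNA, fewer cells that express a gene and less RNA per cell cannot be told apart.

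Summed over all 94 members, normalized counts were 647, 760 and 661 with UK-5099, against 2147, 1982 and 2205 with the 3 inhibitors. The means, 689.5 ± 61.5 with UK-5099, against 2111 ± 116 with the 3 inhibitors (SD, n = 3 each), differed by a log2 ratio of -1.61 ± 0.09 (SE), or 3.06-fold. These genes were a very small part of the RNA: their share of all normalized counts was between 0.00268% and 0.00319% with UK-5099 and between 0.0082% and 0.00929% with the 3 inhibitors.

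**Figure D1:**
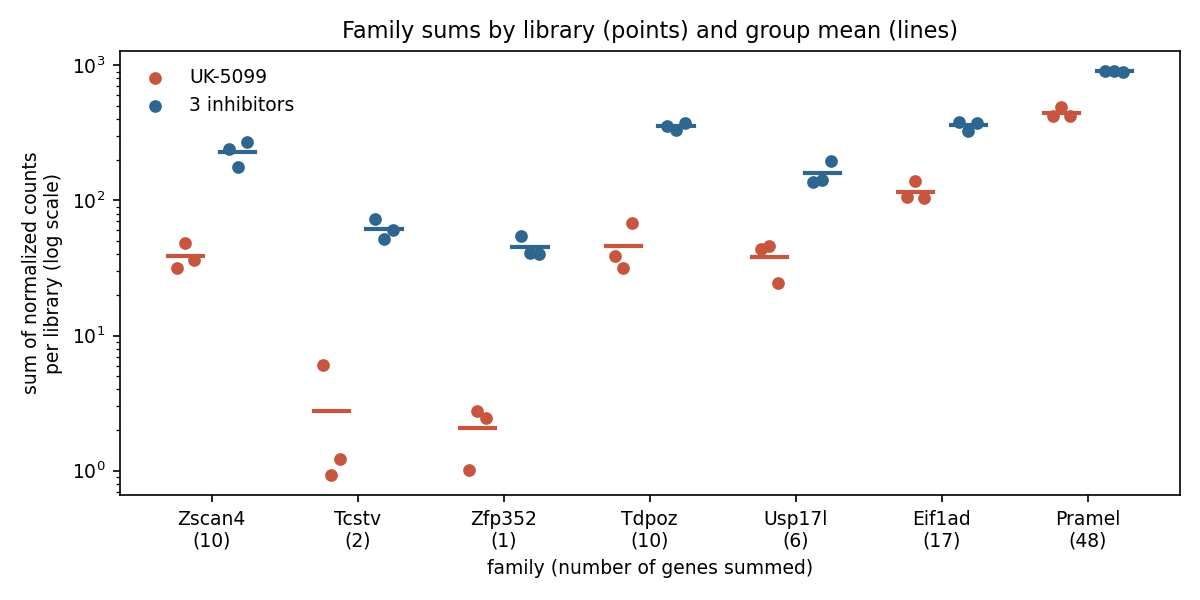
Sum of normalized counts of each family (log axis, number of genes in brackets) in each library (points) with the group mean (lines), UK-5099 left and 3 inhibitors right. In all 7 families the 3 UK-5099 points lie below the 3 points of the 3 inhibitors.

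The filter of a mean of at least 10 normalized counts, used for all tests below, left 36 members. A gene near 0 with UK-5099 passed it only if the 3 inhibitors held about 20 counts or more, so counts over these 36 describe them and support nothing. Just outside were Pramel39 with a mean of 8.73 and Tdpoz9-ps1 with 8.75, and just inside Usp17le with 10.7 and Pramel13 with 10.8. Of the 36, 32 lay below without overlap, 1 above and 3 overlapped, against 30.1% below and 30.7% above among all 15704 genes with such a mean. The mean was at least 4-fold lower in 25 of the 36, against 1.91% of those 15704 genes. On the log2(normalized count + 1) scale the median difference of the 36 was -2.73, within a range of -4.24 to 0.82, while the median of all genes tested was 0.00. The lowest values depend on the added 1, because 3 of the 36 had 3 or fewer reads over the UK-5099 libraries.

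**Figure D2:**
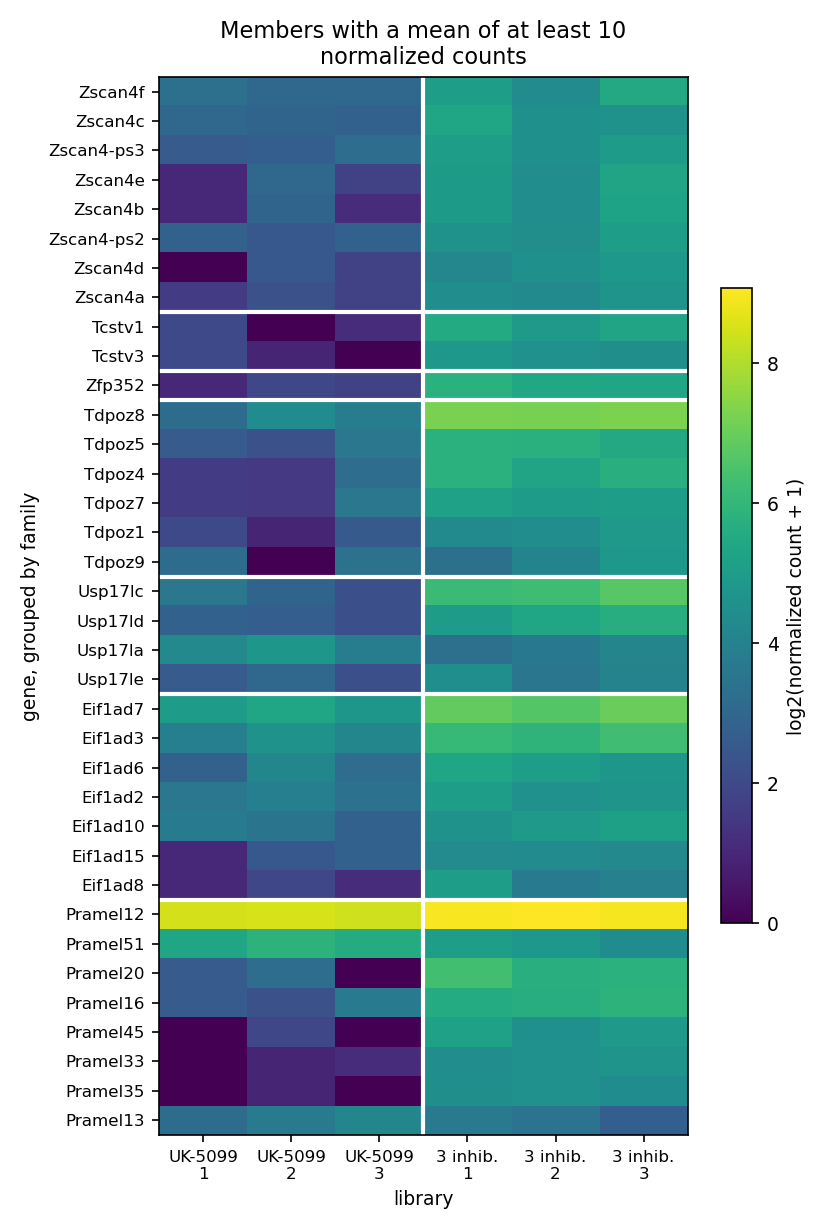
Log2(normalized count + 1) of the 36 members with a mean of at least 10 (rows, grouped by family, white lines between families) in the 3 UK-5099 libraries (left) and the 3 libraries of the 3 inhibitors (right). Colours are darker, that is, lower, on the left for most genes; Pramel51, Usp17la and Pramel13 are exceptions.

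Zscan4 proteins combine a SCAN domain with zinc fingers, bind DNA, and are known in mouse embryonic stem cells for keeping telomeres long. The family sum was 31.5, 48.3 and 36.5 normalized counts with UK-5099, against 239, 178 and 271 with the 3 inhibitors. The UK-5099 mean of 38.8 ± 8.6 lay 5.92-fold below the mean of 229 ± 47.5 with the 3 inhibitors (SD, n = 3 each; log2 ratio -2.57 ± 0.25, SE). Every one of the 9 detected Zscan4 genes and pseudogenes was lower with no overlap, and the pseudogene Zscan4-ps4 was at 0 throughout.

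Zscan4c, the copy studied most in embryonic stem cells, had 7.11, 6.50 and 6.09 normalized counts with UK-5099, against 40.2, 22.3 and 23.8 with the 3 inhibitors, a 4.38-fold lower mean. Zscan4f, also a full-length gene, had 9.14, 7.42 and 7.31 with UK-5099, against 33.0, 19.7 and 42.9 with the 3 inhibitors. Zscan4d, the copy known as the main one in the 2-cell embryo, had 0, 4.64 and 2.44 with UK-5099, against 17.5, 22.3 and 27.4 with the 3 inhibitors. In Zscan4c and Zscan4f the UK-5099 libraries were close together, whereas the Zscan4d values with UK-5099 came from only 7 reads. Its 9.51-fold lower mean became 18.4-fold without UK-5099 replicate 2. The shorter copies Zscan4b and Zscan4e carried nearly equal values in the libraries of the 3 inhibitors, and with UK-5099 they came to 9 and 11 reads over the 3 libraries. Cut into all its 75-base windows, the longest transcript of Zscan4b in a GENCODE annotation of GRCm38 shared 84.5% of them exactly with another gene, and that of Zscan4e 87.4%. Their means were 10.1-fold and 8.17-fold lower with UK-5099, and 26.2-fold and 17.2-fold lower without UK-5099 replicate 2. Zscan4a and the pseudogenes Zscan4-ps2 and Zscan4-ps3 were 7.83-fold, 4.58-fold and 4.40-fold lower. The median over the family was 70.6% shared windows, so values of single copies are less certain than the sum.

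Tcstv1 and Tcstv3 encode small proteins that have been tied to telomere length in mouse embryonic stem cells. Tcstv1 had 3.05, 0 and 1.22 normalized counts with UK-5099, against 45.4, 28.6 and 38.4 with the 3 inhibitors. Tcstv3 had 3.05, 0.928 and 0 with UK-5099, against 27.8, 23.2 and 21.9 with the 3 inhibitors. No UK-5099 library came near the other group, and each gene was represented by 4 reads over the UK-5099 libraries. The 2 genes together averaged 2.75 ± 2.90 with UK-5099, against 61.8 ± 10.75 with the 3 inhibitors (SD, n = 3 each), a 22.5-fold lower sum (log2 ratio -4.49 ± 0.89, SE). Without UK-5099 replicate 1, which held most of those few reads, the ratio was -5.85. Only 7.88% and 14.3% of the windows of Tcstv1 and Tcstv3 occur in another gene.

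Zfp352, a zinc finger gene of the 2-cell embryo, had 1.02, 2.78 and 2.44 normalized counts with UK-5099, against 54.6, 41.1 and 40.2 with the 3 inhibitors. The mean of 2.08 ± 0.937 with UK-5099 lay 21.8-fold below the mean of 45.3 ± 8.08 with the 3 inhibitors (SD, n = 3 each; log2 ratio -4.45 ± 0.40, SE). The groups lay far apart, and reads numbered 6 over the UK-5099 libraries and 143 over the others. Of its windows, 2.86% also occur in another gene.

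Tdpoz genes encode relatives of Spop, an adaptor that brings substrates to cullin-based ubiquitin ligases. The family summed to 38.6, 31.6 and 68.2 normalized counts with UK-5099, against 354, 332 and 376 with the 3 inhibitors. The means of 46.1 ± 19.45 with UK-5099 and 354 ± 21.98 with the others (SD, n = 3 each) gave a log2 ratio of -2.94 ± 0.35 (SE), or 7.68-fold. All 10 Tdpoz genes were detected and 8 were lower without overlap.

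Tdpoz8 was the clearest single case, because 0.518% of its windows occur in another gene. It had 8.13, 20.4 and 13.4 normalized counts with UK-5099, against 149.5, 147 and 155 with the 3 inhibitors. The mean was 10.8-fold lower with UK-5099, 14.0 ± 6.165 against 151 ± 4.08 with the 3 inhibitors (SD, n = 3 each). All 3 UK-5099 libraries lay far below the other group. Tdpoz4 had 2.03, 1.86 and 8.53 with UK-5099, against 54.6, 38.4 and 52.1 with the 3 inhibitors. Its 11.7-fold lower mean became 24.9-fold without UK-5099 replicate 3, the highest of its group. Every window of Tdpoz5 and of Tdpoz7 also occurs in another gene, and their promoters match at 99.7% of bases, so the 2 copies are hard to separate. Tdpoz5 was 7.61-fold and Tdpoz7 6.68-fold lower, the second of these 17-fold lower without UK-5099 replicate 3. Tdpoz1 was 7.72-fold lower, with 2.95 ± 1.97 normalized counts with UK-5099, against 22.8 ± 5.68 with the 3 inhibitors (SD, n = 3 each). Tdpoz9 had 8.13, 0 and 9.74 with UK-5099, against 9.28, 16.1 and 27.4 with the 3 inhibitors, and the groups overlapped.

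Usp17l genes encode the DUB deubiquitinating enzymes, first described in mouse blood cells as products induced by cytokines. Their sum was 43.7, 46.4 and 24.4 normalized counts with UK-5099, against 138, 143 and 195 with the 3 inhibitors. The mean lay 4.16-fold lower with UK-5099, 38.15 ± 12.02 against 159 ± 31.3 with the 3 inhibitors (SD, n = 3 each; log2 ratio -2.06 ± 0.31, SE). The members divided. Usp17lc had 11.2, 6.50 and 3.65 normalized counts with UK-5099, against 71.1, 74.2 and 103 with the 3 inhibitors, 11.7-fold lower. Usp17ld had 6.10, 5.57 and 3.65 with UK-5099, against 30.9, 40.2 and 49.3 with the 3 inhibitors, 7.86-fold lower. In both genes every UK-5099 library was below the other group, as it was in Usp17le, 2.96-fold lower.

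Usp17la ran the other way in its mean. It had 18.3, 26.9 and 13.4 normalized counts with UK-5099, against 9.28, 11.6 and 16.4 with the 3 inhibitors. The groups overlapped, and the log2 ratio was 0.65 ± 0.38 (SE). In this family 7.67% of the Usp17la windows are shared, against 35.7% for Usp17lc and 43.4% for Usp17ld. Without Usp17la the sum was 18.6 ± 7.26 with UK-5099, against 146 ± 27.8 with the 3 inhibitors (SD, n = 3 each), 7.85-fold lower. In this family the windows of Usp17lc and Usp17ld held both TATAAA and CAAGGNCA. That of Usp17lb, also lower, held TATAAA without CAAGGNCA, and the Usp17la window, printed above, held no motif. The windows of Tdpoz4, Tdpoz5, Tdpoz7 and Pramel16, all lower with UK-5099 without overlap, held none either. A link between the motifs and these differences was not tested.

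Eif1ad genes are copies of the gene for translation initiation factor Eif1a, which helps ribosomes find the start codon. The 17 genes summed to 106, 139 and 104 normalized counts with UK-5099, against 379, 329 and 374 with the 3 inhibitors. The means of 116 ± 20.01 with UK-5099 and 361 ± 27.6 with the others (SD, n = 3 each) differed 3.11-fold (log2 ratio -1.63 ± 0.16, SE). Of 16 detected genes, 11 were lower without overlap and 5 overlapped.

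Eif1ad7, also known as Gm5662, had 31.5, 38.98 and 26.8 normalized counts with UK-5099, against 116.5, 99.2 and 127 with the 3 inhibitors, 3.52-fold lower. Eif1ad3 (Gm2016) had 14.2, 24.1 and 17.1 with UK-5099, against 67.0, 58.1 and 76.7 with the 3 inhibitors, 3.64-fold lower. Eif1ad8 (Gm8300) had 1.02, 2.78 and 1.22 with UK-5099, against 33.0, 12.5 and 14.6 with the 3 inhibitors, 12-fold lower. No UK-5099 library reached the lowest of the other group in these 3 genes. Eif1ad8 shares 16.6% of its windows, against 67.0% for Eif1ad7 and 73.6% for Eif1ad3. Eif1ad15, which shares 7.69%, was 4.90-fold lower. Eif1ad2 (BB287469) and Eif1ad6 (Gm4027), whose transcripts share 92.9% of windows, were 2.32-fold and 3.18-fold lower, and Eif1ad10 3.05-fold. At the other end, Eif1ad17 had 7.35 ± 1.22 normalized counts with UK-5099, against 8.29 ± 3.82 with the 3 inhibitors (SD, n = 3 each). Eif1ad18 had 3.375 ± 1.14 with UK-5099, against 3.43 ± 0.913 with the 3 inhibitors (SD, n = 3 each). Both lay below the filter, with 21 and 10 reads with UK-5099 and 27 and 11 with the 3 inhibitors. Of their windows 65.7% and 33.0% are shared, so their values are uncertain. All 16 detected genes had a lower mean with UK-5099, by unequal amounts.

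Pramel genes encode leucine-rich repeat proteins related to PRAME, a human antigen of tumours and testis, and are known from the germ line and the early embryo. The 48 genes summed to 421, 491 and 425 normalized counts with UK-5099, against 909, 907 and 889 with the 3 inhibitors. The mean was 2.02-fold lower with UK-5099, 446 ± 39.4 against 902 ± 11.1 with the 3 inhibitors (SD, n = 3 each; log2 ratio -1.02 ± 0.07, SE). One gene set most of this sum. Pramel12, on chromosome 4 and with 0 of its windows shared, had 353, 368 and 337 normalized counts with UK-5099, against 497, 534 and 493 with the 3 inhibitors. Its mean was 1.44-fold lower, and all UK-5099 libraries lay below. Without Pramel12 the other 47 genes summed to 93.1 ± 28.1 with UK-5099, against 394 ± 19.9 with the 3 inhibitors (SD, n = 3 each), 4.23-fold lower. Of 40 detected Pramel genes, 23 were lower without overlap, 1 was higher and 16 overlapped.

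The Pramel cluster on chromosome 5 was nearly silent with UK-5099. Its 18 genes summed to 3.05, 26.9 and 2.44 normalized counts, against 184.5, 176 and 205.5 with the 3 inhibitors, a log2 ratio of -4.13 ± 1.08 (SE). UK-5099 replicate 2 stood apart from the other two of its group, and without it the ratio was -6.10. All 18 genes were detected, all had a lower mean with UK-5099, 13 of them without overlap, and 6 had no read at all in the UK-5099 libraries. Pramel45 had 0, 2.78 and 0 with UK-5099, against 35.05, 22.3 and 29.2 with the 3 inhibitors. Pramel33 had 0, 0.928 and 1.22 with UK-5099, against 20.6, 23.2 and 24.7 with the 3 inhibitors. Pramel35 had 0, 0.928 and 0 with UK-5099, against 21.65, 23.2 and 20.1 with the 3 inhibitors. These came to 3, 2 and 1 reads over the UK-5099 libraries, too few for a fold. Pramel38 and Pramel42 had 53 and 43 reads with the 3 inhibitors and 0 with UK-5099. Windows of Pramel33 and Pramel35 are over 90% shared (92.4% and 91.3%) and of Pramel45 40.6%, so values of single copies are uncertain. The sum removes this only in part. The genes sharing most windows with Pramel35 (77.4%) and with Pramel45 (28.9%) lie outside the families.

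On chromosome 4, the 24 Pramel genes other than Pramel12 summed to 34.8 ± 8.12 normalized counts with UK-5099, against 178 ± 14.9 with the 3 inhibitors (SD, n = 3 each), 5.11-fold lower. Pramel20 had 5.08, 8.35 and 0 with UK-5099, against 79.4, 50.04 and 53.9 with the 3 inhibitors. Its 13.6-fold lower mean became 24.1-fold without UK-5099 replicate 2. Of the Pramel20 windows 44.2% are shared, and a single gene outside the families holds 40.2%. Pramel16 had 5.08, 3.71 and 12.2 with UK-5099, against 46.4, 49.15 and 57.6 with the 3 inhibitors, 7.30-fold lower, and 11.6-fold without UK-5099 replicate 3. Both genes were low in all UK-5099 libraries. Pramel13 had 8.13, 12.1 and 17.1 with UK-5099, against 12.4, 9.83 and 5.48 with the 3 inhibitors, with overlapping groups. Outside these clusters, Pramel51 on chromosome 12 was the only member higher with UK-5099 without overlap, at 39.6, 56.6 and 46.3 normalized counts, against 32.0, 27.7 and 20.1 with the 3 inhibitors, 1.79-fold higher. Of the Pramel51 windows 46.4% occur in another gene, and a single gene outside the families holds 43.8%.

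**Figure D3:**
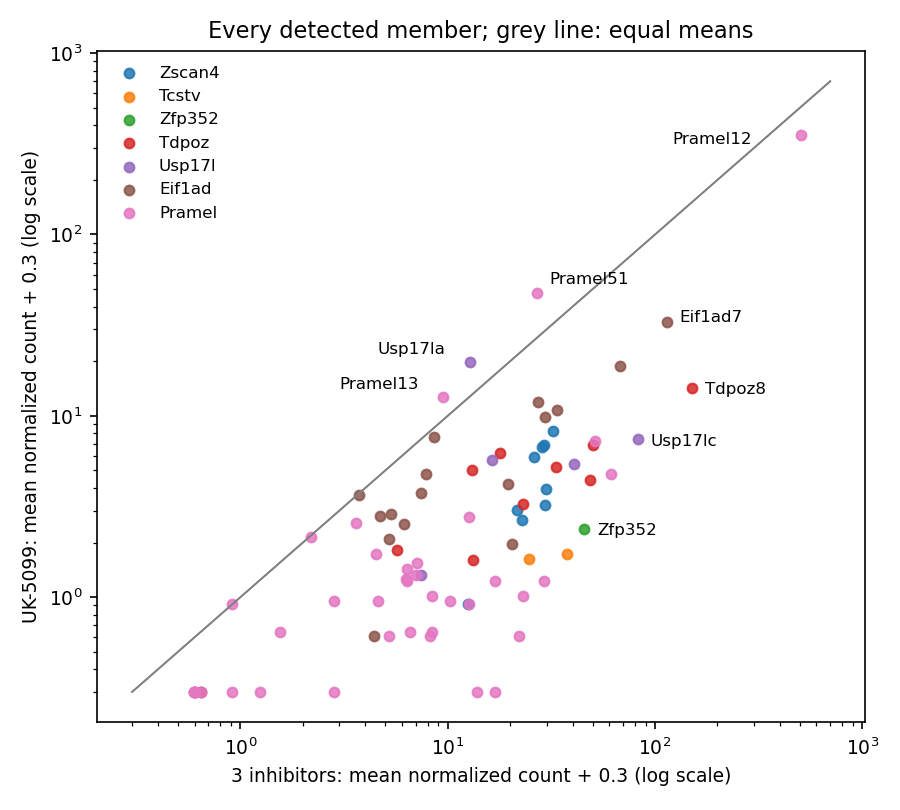
Mean normalized count plus 0.3 of each of the 83 detected members with UK-5099 (vertical) and with the 3 inhibitors (horizontal), both on log axes and coloured by family, with the line of equal means in grey. Of these, 79 lie below the line, and Usp17la, Pramel13 and Pramel51 are among the 4 above it.

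Members with little and with much shared sequence were both lower with UK-5099. The 27 members with under 20% of windows shared, Pramel12 left out, summed to 72.1 ± 14.5 normalized counts with UK-5099, against 414 ± 42.4 with the 3 inhibitors (SD, n = 3 each), 5.74-fold lower, and with Pramel12 the ratio was 2.17-fold. The 66 members at or above 20% summed to 265 ± 35.75 with UK-5099 and 1189 ± 110 with the others, 4.49-fold lower.

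Genes outside the families were tested with limma across 15704 genes, of which 8449 (53.8%) had a Benjamini-Hochberg adjusted p under 0.05. With UK-5099, 4275 were higher and 4174 lower. With libraries centred on their median log2 value, the split was 3375 higher and 5261 lower. Among lists of genes tied to the 2-cell programme, the closest to the families was that of other 2-cell-stage transcripts. Of 20 such genes found in the table and not among the members, 5 could be tested, and 3 were lower and 1 higher with UK-5099, against 26.6% lower and 27.2% higher among all genes tested. Of the 3 lower ones, AA792892 and AF067063 passed the filter only through the 3 inhibitors. Their means were 7.12 and 0.677 with UK-5099, against 78.5 and 28.0 with the 3 inhibitors. The counts of this list therefore describe it and support nothing. The lists were drawn up with earlier results of these data known.

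Gm4340, a 2-cell-stage transcript, had 37.6, 45.5 and 57.2 normalized counts with UK-5099, against 436, 574 and 561 with the 3 inhibitors. Its log2 fold change was -3.47 ± 0.16 (SE; limma, adjusted p = 1.76e-08). AA792892 had 8.13, 8.35 and 4.87 with UK-5099, against 82.5, 65.2 and 87.7 with the 3 inhibitors (log2 fold change -3.31 ± 0.28, SE; limma, adjusted p = 1.56e-06). AF067063 had 2.03, 0 and 0 with UK-5099, against 37.1, 25.02 and 21.9 with the 3 inhibitors (limma, adjusted p = 4.19e-05), and its 2 reads with UK-5099 allow no fold. In all 3 genes no UK-5099 library came near the other group. Sp110, a nuclear body protein also made in immune cells, was higher with UK-5099 by 0.35 ± 0.11 (log2, SE; limma, adjusted p = 0.0172). Alternatives gave limma adjusted p from 0.00231 to 0.0587 for it, the highest on centring, which ended the call.

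Of 15 known activators of the programme found in the table, 7 were at 0 in all 6 libraries. Among them were Duxf3, Dppa4 and the nuclear receptor Nr5a2. The symbol Dux was not matched, and whether that gene stands under another symbol, such as Duxf3, was not checked. Dppa2, which acts upstream of Dux, had 0 in every UK-5099 library and 2.06, 0.894 and 0 normalized counts with the 3 inhibitors. With 4 activators testable, only Smarca5, a chromatin remodeller, was called, higher with UK-5099 by 0.29 ± 0.05 (log2, SE, limma adjusted p = 0.000238). Duxbl1 (-0.68 ± 0.28, adjusted p = 0.0589), Nfya (-0.07 ± 0.07, adjusted p = 0.452) and Trp53 (0.09 ± 0.04, adjusted p = 0.105) were not called. Duxbl1 was called lower on centring (limma adjusted p = 0.036) and without UK-5099 replicate 2 (0.00998). Trp53 was called higher on upper-quartile rescaling (0.0175).

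Repressors and chromatin silencers were read in depth, and 30 of 32 could be tested. With UK-5099, 13 were higher, 9 lower and 8 not called, against 27.2% higher and 26.6% lower among all genes tested. Over all 5 lists 15 genes were higher and 14 lower, and on centring 11 were higher and 18 lower. Uhrf1, which guides the maintenance DNA methyltransferase, had 1688, 1490 and 1619 normalized counts with UK-5099, against 809, 843 and 707 with the 3 inhibitors (log2 fold change 1.02 ± 0.07, SE; limma, adjusted p = 3.81e-07). Chaf1a is the large subunit of the histone chaperone CAF-1, whose loss is known to raise 2-cell-like cells. Its value was higher with UK-5099 by 0.90 ± 0.07 (log2, SE, limma adjusted p = 1.21e-06). Dnmt1, the maintenance DNA methyltransferase, was higher with UK-5099 by 0.51 ± 0.05 (limma adjusted p = 9.86e-06). Sumo2 was higher by 0.50 ± 0.04 (limma adjusted p = 2.21e-06) and the deacetylase Hdac1 by 0.46 ± 0.04 (limma adjusted p = 3.39e-06). Myc, the growth-promoting transcription factor, was higher with UK-5099 by 0.29 ± 0.06 (limma adjusted p = 0.00175). Among the 9 lower ones, Mga, a partner of Max in a repressor complex of germline genes, differed by -0.43 ± 0.04 (adjusted p = 8.18e-06) and E2f6, of the same complex, by -0.34 ± 0.06 (adjusted p = 0.000846). Zfp809, which silences retroviral sequences, differed by -0.24 ± 0.04 (adjusted p = 0.000438), the demethylating enzyme Tet3 by -0.21 ± 0.05 (adjusted p = 0.00259) and Max by -0.19 ± 0.04 (adjusted p = 0.00311). These 5 calls held under every alternative run. Trim28, the corepressor of zinc finger proteins at retroelements, differed by -0.10 ± 0.04 (adjusted p = 0.0494), which most alternatives did not call (adjusted p from 0.00145 to 0.134). Its partner methyltransferase Setdb1 (0.02 ± 0.05, adjusted p = 0.791) and the demethylase Kdm1a (-0.04 ± 0.04, adjusted p = 0.421) were not called.

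**Figure D4:**
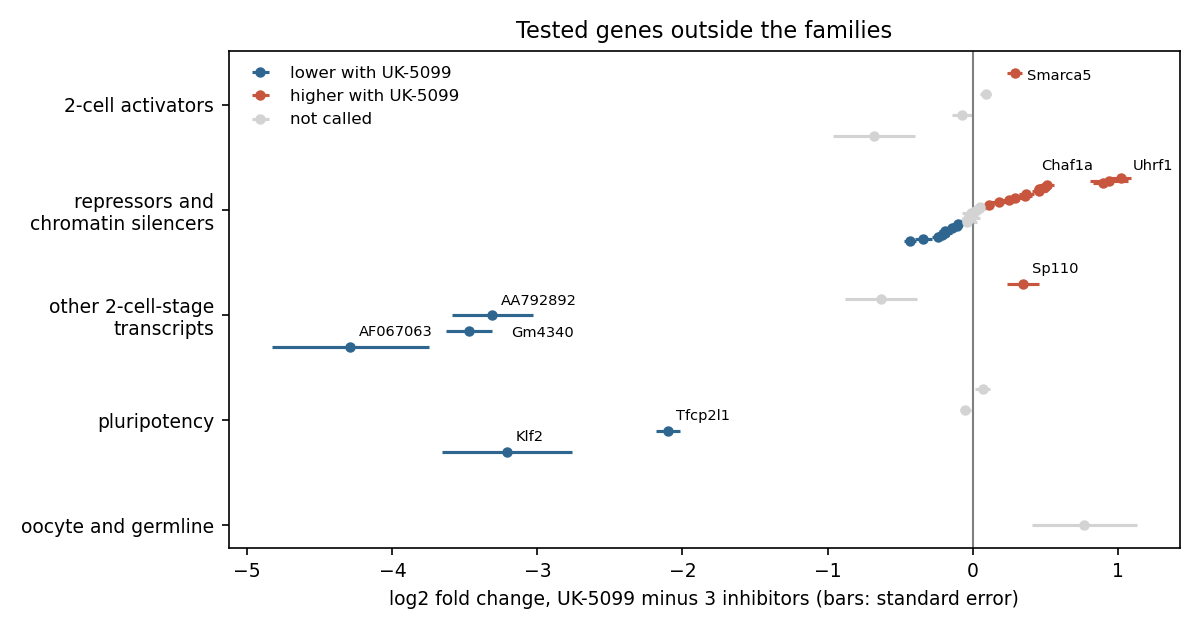
Log2 fold change (UK-5099 minus 3 inhibitors, on the log2(normalized count + 1) scale, bars are standard errors) of the tested genes of 5 lists outside the families, coloured by limma call. Gm4340 lies at -3.47 and AA792892 at -3.31, and the place of AF067063 depends on the added 1. Uhrf1, at 1.02, has the highest value among the repressors.

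Among pluripotency factors, Pou5f1 and Nanog, the core ones, were at 0 in all 6 libraries. Of 19 pluripotency genes 4 could be tested and 2 were lower with UK-5099, against 26.6% of all genes tested. They were Tfcp2l1, a factor also made in epithelia (log2 fold change -2.10 ± 0.08, SE; limma, adjusted p = 2.54e-09), and Klf2 (-3.21 ± 0.45, adjusted p = 9.8e-05). Klf2, with a mean of 3.61 with UK-5099 and 36.8 with the 3 inhibitors, passed the filter only through the 3 inhibitors. Of 33 oocyte and germline genes only Brdt, a bromodomain protein of the testis, reached the filter. It was not called (0.77 ± 0.36, limma adjusted p = 0.0946). Dazl was at 0 throughout, and Ddx4 had 2.03, 3.71 and 3.65 normalized counts with UK-5099, against 5.15, 2.68 and 9.14 with the 3 inhibitors.

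The libraries held between 19909589 and 25663880 reads with UK-5099 and between 23710133 and 27037795 with the 3 inhibitors, and the first principal component, with 76.6% of the variance, separated the groups. All 10 basal cell markers were expressed in every library, and with UK-5099 6 were called higher, 2 lower and 2 neither (limma). Krt5 and Krt14 were among the higher ones, while Ngfr (log2 fold change -2.20 ± 0.16, SE; limma, adjusted p = 4.32e-07) and Epcam (-0.32 ± 0.05, adjusted p = 0.000246) were lower. Their sum, made up mostly of keratins, was between 321900 and 345900 normalized counts with UK-5099 and between 150700 and 163500 with the 3 inhibitors. Other cell states differed between the groups as well. The 7 airway secretory markers summed to between 1127 and 1738 with UK-5099 and between 4648 and 5014 with the 3 inhibitors. Nearly all of this was Cyp2f2, with means of 1350 with UK-5099 and 4595 with the 3 inhibitors. All 3 secretory markers that could be tested were lower, while Scgb3a1 and Scgb3a2 were near 0 and overlapped. Of the 3, Muc5b passed the filter only through the 3 inhibitors, with means of 8.13 with UK-5099 and 29.6 with the 3 inhibitors. Fibroblast sums did not exceed 14.6 in any library and endothelial sums 3.71, with Col1a2, Col3a1, Lum and Cdh5 at 0 throughout. The 4 leukocyte markers summed to between 487 and 695 with UK-5099 and between 482 and 512 with the 3 inhibitors, nearly all of it Cd68, which was not called, while Ptprc did not exceed 1.03 in any library. Neuroendocrine sums did not exceed 4.64, and Foxj1, the defining factor of multiciliated cells, was at most 1.02 with UK-5099 and 5.15 with the 3 inhibitors. The groups overlapped in Foxj1. The multiciliated markers Tubb4b, Dnah5 and Ccdc78 went the other way, higher with UK-5099 without overlap. Dnah5 did not exceed 6.10 and Ccdc78 10.96 in any library, and Tubb4b was called higher (log2 fold change 0.31 ± 0.05, limma adjusted p = 0.000174). Lyz2, a lysozyme of myeloid and some airway cells, had 0, 0.928 and 0 normalized counts with UK-5099, against 11.3, 20.55 and 9.14 with the 3 inhibitors, without overlap. Xist averaged 24280 ± 1528 with UK-5099, against 14250 ± 129 with the 3 inhibitors, and the Y-linked gene Ddx3y 422 ± 13.02 with UK-5099, against 745 ± 34.6 with the 3 inhibitors (SD, n = 3 each). The part of secretory or Lyz2-expressing cells, or of the animals' sex, in the values of the families was not tested.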

How the data were processed

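Expression was measured by RNA sequencing in 6 libraries, 3 with UK-5099 and 3 with the 3 inhibitors, made per the labels with the VAHTS universal V8 kit. Build GRCm39, the aligner HISAT2 2.1.0 and DESeq2 1.36.0 come from the submitters' processing notes. Not given in the sources used here are the read counter, its handling of strand and of multiply placed reads, and the annotation. The deposited values are of another unit than counts: the authors took the log2 of reads scaled by library size factors, and a text mark stands for 0.

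Values were raised back from log2, the mark was read as 0, and 359 of 57107 entries that repeated a gene were dropped. All values under 5000 reads came to whole reads within 0.02. Genes with a mean of at least 10 (15704) were fitted on log2(normalized count + 1) with limma 3.58.1 (R 4.3.3, trend, two-sided, Benjamini-Hochberg, threshold 0.05), as planned for normalized values. Fold changes on that scale understate changes of low genes; folds of members and sums are ratios of mean normalized counts. Errors of log2 ratios combine the standard errors of both means. Of these steps, the limma fit was tested on simulated data.

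Members and lists were chosen with earlier results of these data known. Members with a mean of at least 10 are named, and of each list up to 4 called genes and a set of fixed names. Zscan4-ps4, Tdpoz9-ps1, Eif1ad17, Eif1ad18, Pramel38, Pramel39, Pramel42 and Usp17lb were named after their values were seen. So were Duxbl1, Nfya, Trp53, Mga, E2f6, Zfp809, Tet3, Max, Xist and Ddx3y. Promoters and chromosomes are RefSeq's (GRCm38.p6); no coordinates were taken from the deposited table. Analyses used Python 3.11.15, pandas 2.3.3, numpy 2.4.6, Biopython 1.88 and matplotlib 3.10.9.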

Additional observations from a re-analysis of the deposited data

How the results depend on the processing

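Across upper-quartile rescaling, centring on the median, summing repeated entries, leaving out the highest member and leaving out each library, all 7 family sums stayed lower with UK-5099. Leaving out each library gave log2 ratios of -2.75 to -2.43 for Zscan4, -5.85 to -4.08 for Tcstv, -4.71 to -4.12 for Zfp352, -3.34 to -2.73 for Tdpoz, -2.22 to -1.82 for Usp17l, -1.79 to -1.56 for Eif1ad and -1.09 to -0.98 for Pramel. Without its highest member Usp17l gave -1.29 and Pramel -2.08, and with repeated entries summed Pramel gave -1.15; Zfp352 is a single gene and has no such value. Of 33 members with a fold and a mean of at least 10, 9 moved by over 1.5 times without 1 library and 0 changed direction. Low reads with UK-5099 limit the size of these folds.

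Of 44 list genes tested, 32 kept their call under every alternative run, which also included pseudocounts of 0.5 and 5, no filter, a mean of 50, no trend and, chosen after seeing the data, limma-voom on the recovered reads (15 higher, 14 lower, as in the main result). Without single libraries 13 to 15 were higher and 11 to 17 lower, and over all genes 3701 to 4580 were higher and 3569 to 4566 lower. Deviations of same-numbered libraries from their group means correlated at -0.017, 0.116 and -0.089. Those of differently numbered libraries correlated at -0.198 to 0.193. With 3 libraries per group, these values cannot show whether same-numbered libraries share an animal or culture. With the replicate block, 15 list genes were higher and 14 lower, and over all genes 4275 and 4148. The planned count tests of edgeR and DESeq2 were not run on the recovered reads. The deposited values were normalized, and limma was the test planned for such values.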
